A study of Mus musculus with 8 samples.

Results

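The 40 genes described here are immediate early and acute response genes of the mouse, taken by their symbols from a given list. They were 40 of the 31053 features counted in the data, and each symbol matched exactly 1 feature. By role they fell into the AP-1 group (Fos, Fosb, Fosl2, Jun, Junb, Jund, Atf3 and Maff), the EGR group (Egr1 to Egr4), the nuclear receptors Nr4a1 to Nr4a3 with Npas4, the KLF group (Klf2, Klf4 and Klf6), inhibitors of signaling (Dusp1, Dusp5, Dusp6, Nfkbia, Zfp36, Trib1 and Sik1), growth and stress regulators (Btg1, Btg2, Gadd45b, Gadd45g, Ier2, Ier3, Ier5, Csrnp1 and Per1), and synaptic or secreted effectors (Arc, Homer1, Nptx2, Ptgs2 and Cyr61).

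The study asked how loss of 1 copy of the histone methyltransferase gene Setd1a changes transcription in individual cell types of 2 tissues, prefrontal cortex (PFC) and striatum, using droplet single-cell RNA sequencing. The series holds 8 libraries, with 2 from WT and 2 from Setd1a+/- mice in each tissue, and each pooled the tissue of 2 male mice. The Setd1a+/- mice carried a CRISPR-Cas9 deletion of 8 bases in exon 15, a frameshift ahead of the SET domain that was taken from 1 selected founder mutation and bred to C57BL/6N, and the controls were their WT littermates, with no treatment in either group. The labels give an age of 8 to 10 weeks and name the striatal samples nucleus accumbens, whereas the methods give a higher age and both dorsal and ventral striatum. Every library came from sliced tissue digested with papain in warm medium, for 35 to 40 min according to the labels, while the methods give the striatum a longer digestion than the PFC. No library from undissociated tissue was analysed here, so levels set in the animal and levels set during slicing and digestion cannot be told apart.

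Immediate early genes are transcribed within minutes of a stimulus without new protein synthesis, from promoters kept ready for the factors CREB, SRF and MEF2, which calcium and MAP kinase signaling switch on. In neurons of the cortex and the striatum they are used as markers of recent firing and of dopamine or glutamate input. In endothelial cells, microglia and other cells the same genes respond to serum, shear stress, cytokines and injury, and enzymatic dissociation of tissue is known to raise many of them.

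The sequences before the start sites of 5 members are shown because these genes carry the results that follow: Fos, Junb and Btg2 were called higher in the endothelial cells of both tissues, and Nr4a1, Egr4, Fos, Junb and Btg2 separate the classes of striatal projection neuron. Each is the 250 bases before the RefSeq start in build GRCm38, read 5′ to 3′ on the gene's strand, for Fos (chr12:85473640-85473889, plus strand), Junb (chr8:84978749-84978998, minus strand), Nr4a1 (chr15:101266596-101266845, plus strand), Btg2 (chr1:134079156-134079405, minus strand) and Egr4 (chr6:85513590-85513839, minus strand). None of these windows holds a base of an annotated GENCODE vM21 exon, and the Nr4a1 window lies within an intron of the annotated gene, which starts further upstream. Capitals mark TGACG, the core of the cAMP response element (CRE), in either orientation, and the TATA element TATAAA.
Fos: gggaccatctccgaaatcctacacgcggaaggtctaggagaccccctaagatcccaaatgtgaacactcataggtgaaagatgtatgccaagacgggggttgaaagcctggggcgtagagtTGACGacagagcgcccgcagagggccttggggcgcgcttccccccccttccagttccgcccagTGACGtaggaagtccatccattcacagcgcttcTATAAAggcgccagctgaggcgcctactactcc
Junb: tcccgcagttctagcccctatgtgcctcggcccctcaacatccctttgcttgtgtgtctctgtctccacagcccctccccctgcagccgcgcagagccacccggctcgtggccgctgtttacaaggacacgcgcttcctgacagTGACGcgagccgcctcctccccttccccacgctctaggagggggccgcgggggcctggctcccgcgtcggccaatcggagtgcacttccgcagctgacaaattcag
Nr4a1: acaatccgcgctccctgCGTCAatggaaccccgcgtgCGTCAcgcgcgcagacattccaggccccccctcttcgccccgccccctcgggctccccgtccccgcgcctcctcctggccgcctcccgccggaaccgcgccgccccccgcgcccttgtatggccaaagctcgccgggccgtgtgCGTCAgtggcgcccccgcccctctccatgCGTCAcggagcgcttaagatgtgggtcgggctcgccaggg
Btg2: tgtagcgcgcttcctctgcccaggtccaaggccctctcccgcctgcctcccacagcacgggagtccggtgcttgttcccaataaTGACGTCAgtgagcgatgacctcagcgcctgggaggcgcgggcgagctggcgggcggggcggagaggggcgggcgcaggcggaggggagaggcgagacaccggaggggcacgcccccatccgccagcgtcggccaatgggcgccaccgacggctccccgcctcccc
Egr4: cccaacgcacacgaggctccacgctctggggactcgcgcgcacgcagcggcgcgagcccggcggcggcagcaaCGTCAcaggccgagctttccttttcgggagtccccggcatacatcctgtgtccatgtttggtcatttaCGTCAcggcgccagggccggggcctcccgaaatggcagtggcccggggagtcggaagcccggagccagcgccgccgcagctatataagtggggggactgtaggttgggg

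All 5 windows hold the CRE core, and among them TATAAA stands before Fos. RefSeq promoter windows were matched for 33 of the 40 members, with 44 start sites, and not for Arc, Egr1, Egr3, Ier2, Nptx2, Sik1 and Trib1. Over windows of 300 bases from 250 before to 50 after a start, on both strands, TGACG was found at 28 of the 44 starts (63.6%, in 21 members) and at 17.8% of all 32851 starts. The full CRE, TGACGTCA, which contains the core, was found at 3 starts (6.82%, those of Btg2, Dusp1 and Maff) against 1.55% of all. The EGR site GCGNGGGCG stood at 10 (22.7% against 4.70%), the CArG box bound by SRF at 6 (13.6% against 1.47%, in Dusp5, Egr2 and Zfp36), TATAAA at 6 (13.6% against 12.4%) and the AP-1 site TGANTCA at 1 (2.27%, Csrnp1, against 6.75%). These are matches of letters and describe the windows alone.

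The libraries held between 15154268 and 26277553 unique molecular identifiers (UMIs), each a counted transcript molecule, and 23687 cells annotated by the authors, 8997 from PFC and 14690 from striatum, with a median of 2302.5 to 3042 UMIs per cell. Levels are given as CPM, the UMIs of a gene in the cells of 1 type in 1 library, scaled to 1000000 UMIs of those cells, and values of the 4 libraries of a tissue are listed in the order WT replicate 1, WT replicate 2, Setd1a+/- replicate 1 and Setd1a+/- replicate 2. UMIs were not scaled by length, so levels are compared within a gene. Setd1a itself, which checks the genotype labels, was at 8.45, 11.2, 5.59 and 9.33 CPM in PFC and 13.4, 15.2, 9.16 and 12.5 CPM in striatum, lower in Setd1a+/- than in WT within each replicate and called in no cell type. Pairs of libraries shared between 1 and 24 cell barcodes. In PFC both replicate 1 libraries stood apart from replicate 2: of 10995 genes with at least 200 UMIs over the 4 PFC libraries, 67 were at least 4-fold lower and 17 at least 4-fold higher in both and none of these was a member, so the comparison of tissues is also given without the PFC replicate 1 libraries. Each cell type was led by the markers fixed for it, except that the striatal interneuron group also led Slc17a7 and Neurod6, markers of excitatory neurons, and that Gad2 was highest in D1 neurons. The p-values and standard errors below rest on the spread between these pooled libraries, with a variance shared over the genes of each fit. They can thus be smaller than the spread of 1 gene over its libraries would give, and they cover no other source of spread.

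Endothelial cells (Endo), the lining of brain vessels, had the highest levels of the acute response transcripts in both tissues. The 40 members together made 20073, 17463, 19962 and 13459 CPM of the endothelial UMIs in PFC and 18835, 20997, 18109.9 and 17751 CPM in striatum. Excitatory neurons (EN) had 1694, 1827, 2285 and 2086 CPM, and D2 medium spiny neurons (MSNs) 1839.7, 1499, 2762 and 1970.2 CPM. The lowest endothelial library lay above the highest library of every other type in both tissues. Among the other types, microglia (Micro) spread most, at 1329.7, 2428, 3211 and 922 CPM in PFC and 2759, 3522, 4681 and 1927 CPM in striatum. Neural stem cells and neuroblasts (NB) of the striatum had 2308, 2672, 2410.4 and 3081 CPM and D1 MSNs 1376, 1311, 1616 and 1341 CPM. Interneurons (IN) had 717 to 1327 CPM in PFC and 915 to 1808 in striatum, and astrocytes (Astro) 922 to 1897 and 880.4 to 1518. The oligodendrocyte lineage had the lowest means in both tissues, with 672 to 779 and 512 to 766 CPM in progenitors (OPC), 206 to 503 and 254 to 511 in newly formed oligodendrocytes (NFO), and 348 to 537 and 593 to 723 in mature oligodendrocytes (Oligo).

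**Figure D1:**
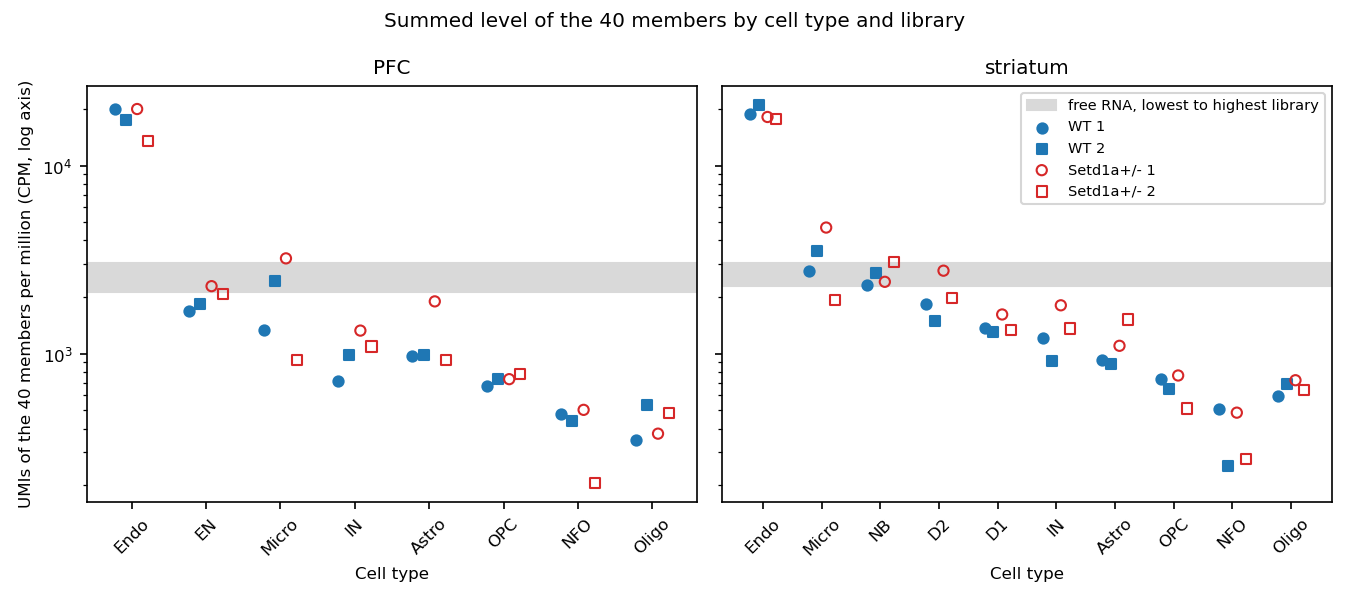
Summed level of the 40 members in CPM (log axis) by cell type, with 1 point per library (filled, WT; open, Setd1a+/-; circle, replicate 1; square, replicate 2) and a grey band from the lowest to the highest library of free RNA. The endothelial libraries sit between 13459 and 20997 CPM, above all libraries of the other types.

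RNA outside cells, read from barcodes with 1 to 50 UMIs, held the members at 2773, 2209.5, 3050.4 and 2137 CPM in PFC and 2449, 2612, 3052 and 2278 CPM in striatum, and its mean lay above the mean of 7 of 8 PFC types and 7 of 10 striatal types. Fos in this free RNA was at 518, 214, 554 and 178 CPM in PFC and 274, 447, 375 and 254 CPM in striatum, again above the mean of 7 PFC types and 7 striatal types. OPCs of the same libraries had 12.0 to 29.6 CPM of Fos in PFC and 6.17 to 34.7 in striatum, below the free RNA of every library. The part of free RNA in the levels below was not tested.

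Endothelial cells were 22.8, 10.6, 23.8 and 10.4% of the annotated cells in PFC and 13.9, 12.9, 16.7 and 9.54% in striatum. They held 81.6, 46.1, 67.8 and 38.6% of the members' UMIs in PFC and 68.5, 67.9, 70.0 and 50.04% in striatum. In every library their share of member UMIs was thus above their share of cells. Of the Fos UMIs they held 93.6, 73.0, 83.9 and 65.5% in PFC and 87.1, 87.6, 82.6 and 78.0% in striatum. Over all cells of a library the summed level was 4994, 2679.6, 4767 and 2408 CPM in PFC and 3575, 3476, 4301 and 2821 CPM in striatum. Without endothelial cells it was 1150.3, 1554, 1832 and 1587 CPM and 1295, 1257, 1547 and 1531 CPM. In PFC the whole-library level was higher in both replicate 1 libraries, and so was their share of endothelial cells, and without those cells the replicate 1 libraries no longer stood highest together. In a whole library, fewer cells of a type and less RNA per cell cannot be told apart, so the levels below are given within cell types.

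Of the 40 members, 29 had their highest mean level in endothelial cells in PFC and 29 in striatum, 28 of them in both, and in 19 and 20 of these the endothelial libraries did not overlap with those of the next type. Excitatory neurons led 10 members in PFC (Egr2, Egr3, Egr4, Arc, Nr4a3, Npas4, Dusp5, Homer1, Ptgs2 and Nptx2), 7 of them without overlap. In striatum D2 MSNs led Egr3, Egr4, Arc, Npas4 and Homer1, and only Arc and Npas4 did not overlap with the next type. The remaining striatal members were led by microglia (Egr2 and Dusp5), neuroblasts (Gadd45g and Nptx2), astrocytes (Nr4a3) and OPCs (Trib1), all with overlapping libraries. In PFC Trib1 was led by OPCs without overlap. No share over all genes is set beside these counts, which describe the members alone. Summed by role, the AP-1 genes made 5171 to 8905 CPM in PFC endothelial cells and 327 to 455 CPM in excitatory neurons, the KLF genes 2019 to 2519 and 85.7 to 120.0, the signal inhibitors 2808 to 3389 and 143 to 205, and the growth and stress regulators 2393 to 4513 and 308 to 488. Excitatory neurons overlapped with endothelial cells in the EGR group, at 326 to 482 and 248 to 447 CPM, and in the group of Nr4a1 to Nr4a3 with Npas4, at 158 to 227 and 219 to 406 CPM.

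**Figure D2:**
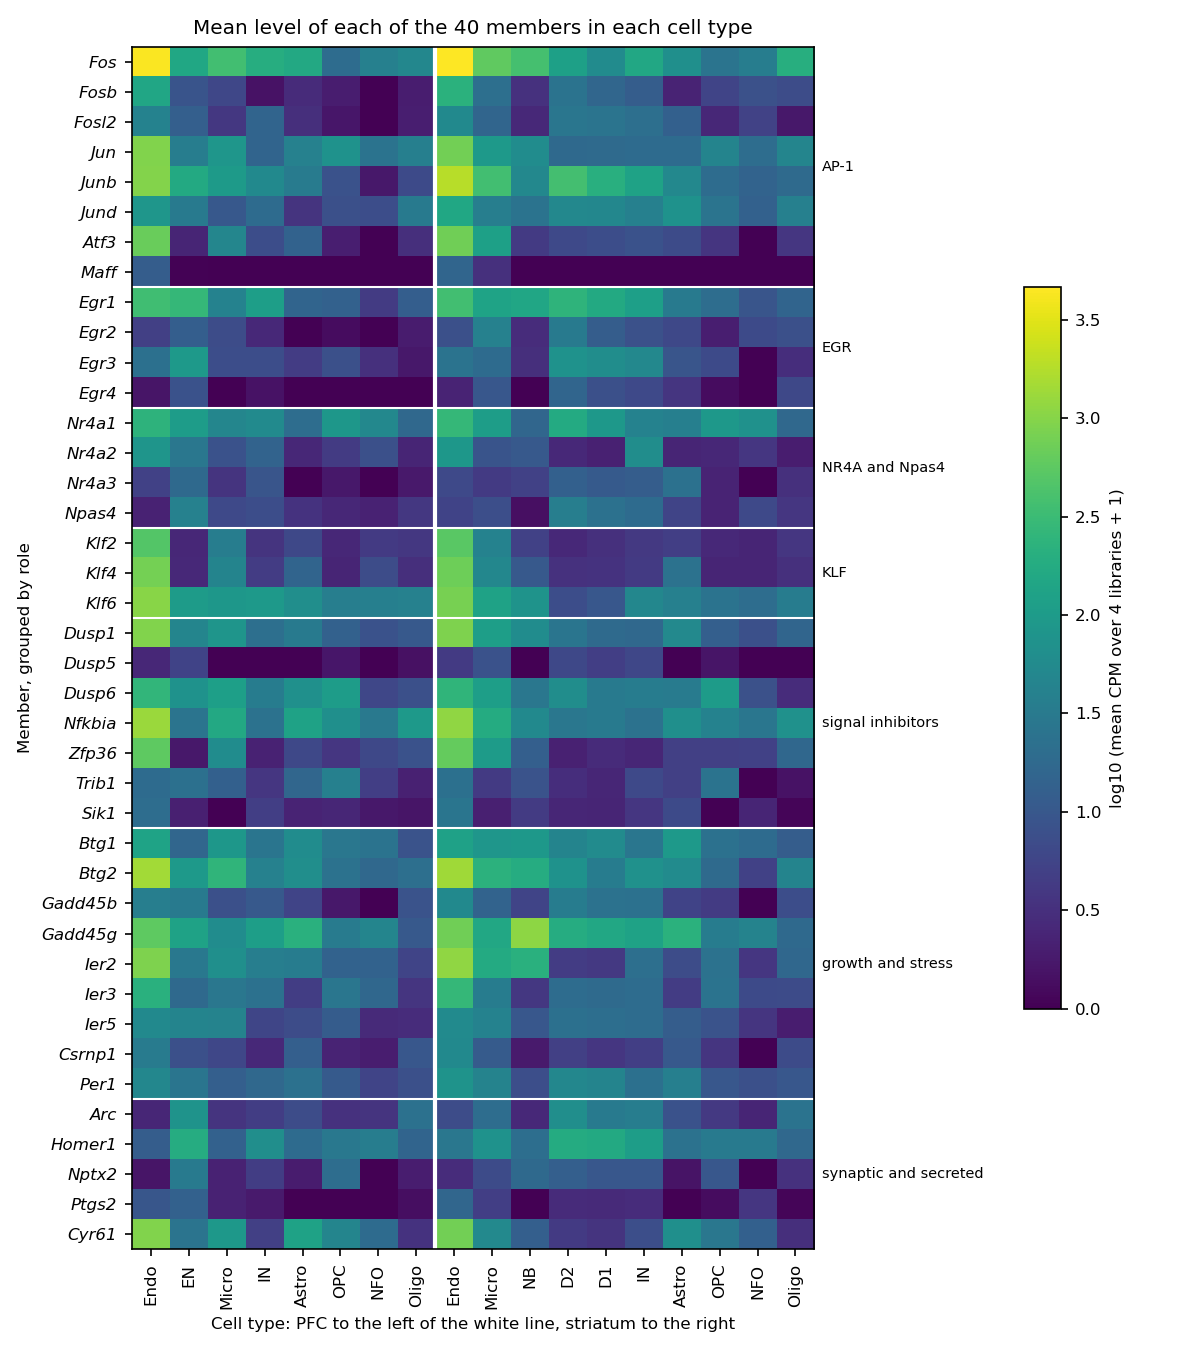
Mean level of each member over 4 libraries as log10 of CPM plus 1 (color) in each cell type, with PFC left and striatum right of the white line and members grouped by role. The endothelial columns are brightest for most AP-1, KLF, signal inhibitor and growth rows, while Egr2 to Egr4, Npas4, Arc, Homer1 and Nptx2 are brighter in neurons than in endothelial cells.

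For the tests that follow, each type was compared with the mean of the other types of the same libraries by edgeR, and a member was called at a false discovery rate (FDR) under 0.05 with a fold change (FC) above 2. In PFC 33 members passed the filter on low counts, and Egr2, Egr4, Nr4a3, Dusp5, Maff, Sik1 and Ptgs2 did not. In striatum 38 passed, all but Dusp5 and Ptgs2. A member that passed through the type in which it is high had to differ, so the counts describe the members tested and support nothing further. For every other type the mean of the others includes endothelial cells. A member high in endothelial cells can thus be called lower elsewhere through them. In endothelial cells 29 were higher and 3 lower in PFC, where 21.3% of all genes tested were called higher and 18.5% lower. In striatum 31 were higher and none lower, against 22.0% and 12.0% of all genes. The differences below are log2 fold changes of this comparison with their standard errors (SE).

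The AP-1 members encode basic leucine zipper proteins that pair to form the AP-1 factor. In endothelial cells Fos was at 5375, 4474, 4982 and 3015 CPM in PFC and 4763, 5269, 4491 and 3946 CPM in striatum, with log2 differences of 5.69 ± 0.16 (FDR 8.03e-33) and 5.50 ± 0.12 (FDR 3.90e-44). Junb, which pairs with Fos, was at 1195, 963, 983 and 663 CPM and 1675, 2415, 1324 and 1976 CPM, with log2 differences of 5.62 ± 0.15 and 4.78 ± 0.11. Jun, the founding partner, was at 1149, 1107, 687 and 781 CPM in PFC and 709, 797, 678 and 901 CPM in striatum. No library of any other type reached the endothelial range for Fos, Junb or Jun. Atf3, a stress-induced relative, was at 972, 542, 763 and 386 CPM and 841, 819, 800.0 and 541 CPM, with the highest endothelial difference of the members tested in each tissue, 7.95 ± 0.14 in PFC and 7.42 ± 0.14 in striatum. Maff, a small Maf factor without a transactivation domain, was at 7.01, 14.6, 10.5 and 12.1 CPM and 13.9, 13.2, 13.2 and 18.2 CPM in endothelial cells and at 0 in every library of all other types but PFC excitatory neurons (0 to 0.214 CPM) and striatal microglia (0 to 8.93 CPM).

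Every neuronal library lay below the endothelial ones of its tissue for Fos, Fosb, Jun, Junb, Atf3 and Maff, while Fosl2 (in PFC interneurons and D2 MSNs) and Jund (in PFC excitatory neurons and interneurons) overlapped with endothelial cells. Fos was at 123, 133, 204 and 154 CPM in excitatory neurons, 56.1, 55.9, 72.4 and 49.6 CPM in D1 MSNs and 103, 77.5, 191 and 111 CPM in D2 MSNs. Junb and Fosl2 were the AP-1 members called higher in excitatory neurons and in both classes of MSN. Junb was at 143, 148, 191 and 181 CPM in excitatory neurons (2.67 ± 0.18) and 288, 339, 402 and 428 CPM in D2 MSNs (2.10 ± 0.13), with 182, 240.5, 163 and 222 CPM in D1 MSNs. Jun was at 32.5 to 36.2 CPM in excitatory neurons and was lower than the mean of the other types in D1 (-1.59 ± 0.19) and D2 MSNs (-1.64 ± 0.20). Its mean levels there, 17.2 and 16.7 CPM, were close to those of striatal astrocytes (17.8) and interneurons (18.2). Fosl2, a late member of the Fos family, differed by 2.41 ± 0.36 in excitatory neurons, 1.60 ± 0.23 in D1 and 1.70 ± 0.24 in D2 MSNs, and was also higher in interneurons of PFC (2.43 ± 0.55) and striatum (1.14 ± 0.30). Jund, the AP-1 member with steady expression, was at 30.6, 166, 18.0 and 121 CPM in PFC endothelial cells and 14.6, 49.6, 9.19 and 49.1 CPM in excitatory neurons, and both replicate 1 libraries were the low ones in each.

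The EGR genes encode zinc finger factors used as readouts of neuronal activity. Egr1 was high in both settings, at 261, 222, 353 and 268 CPM in excitatory neurons and 419.8, 379, 359 and 227 CPM in PFC endothelial cells, and the EN libraries overlapped with the endothelial ones. In striatum it was at 175, 131, 233 and 119 CPM in D1 MSNs, 266, 155, 378 and 171 CPM in D2 MSNs and 400.4, 348, 333 and 339 CPM in endothelial cells. Egr3, a close relative, was neuronal, at 79.7, 88.6, 105 and 104 CPM in excitatory neurons (4.12 ± 0.16), 56.1, 55.9, 75.4 and 57.3 CPM in D1 MSNs and 58.0, 52.9, 123 and 54.1 CPM in D2 MSNs. Egr2 was at 18.4, 19.7, 44.5 and 41.6 CPM in D2 MSNs and 12.6, 68.7, 17.9 and 59.8 CPM in striatal microglia, and it was called higher in both (2.80 ± 0.26 and 3.33 ± 0.50). Egr4 was at 10.4, 11.0, 23.4 and 13.5 CPM in D2 MSNs (3.71 ± 0.41) and 5.00, 4.97, 8.99 and 8.81 CPM in D1 MSNs (2.47 ± 0.48).

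Npas4, a factor induced by calcium entry in neurons, was at 37.6, 44.4, 37.4 and 38.3 CPM in excitatory neurons (4.02 ± 0.25), and 0 to 2.65 CPM in PFC endothelial cells. In striatum it was at 22.3, 29.6, 15.5 and 20.2 CPM in D1 MSNs and 34.6, 34.2, 32.0 and 42.6 CPM in D2 MSNs. The free RNA held 26.3, 55.4, 29.5 and 35.5 CPM of Npas4 in PFC and 41.4, 26.1, 29.2 and 40.9 CPM in striatum, close to its level in the neurons. Nr4a1, an orphan nuclear receptor that responds to dopamine and calcium signals, was broad, at 73.9, 85.7, 148 and 110.1 CPM in excitatory neurons, 137, 106, 298 and 159 CPM in D2 MSNs, and 253, 219, 328 and 123 CPM and 286, 299, 262 and 253 CPM in the endothelial cells of PFC and striatum. Nr4a2, which also marks some deep-layer neurons, was at 78.6, 83.5, 73.6 and 89.2 CPM in PFC endothelial cells and 27.8, 16.7, 25.0 and 41.7 CPM in excitatory neurons. Nr4a3 was led by excitatory neurons at 18.5, 13.9, 16.9 and 17.0 CPM in PFC and by astrocytes at 5.15, 2.04, 16.9 and 63.7 CPM in striatum.

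The KLF genes encode zinc finger factors, of which Klf2 and Klf4 are known for their induction by laminar flow in endothelium. Klf2 was at 397, 566, 497 and 456 CPM in PFC endothelial cells and 516, 475, 576 and 565 CPM in striatal ones, with differences of 6.87 ± 0.12 and 7.30 ± 0.10. Klf4 was at 841, 779, 837 and 675 CPM and 715, 633, 828 and 679 CPM, with 7.32 ± 0.15 and 7.27 ± 0.12. Both were called lower in excitatory neurons (-2.55 and -2.85) and in D1 (-1.500 and -2.10) and D2 MSNs (-2.15 and -1.80), against means that include endothelial cells. Mean Klf2 was at 1.60 CPM in excitatory neurons, beside 1.57 in OPCs and 2.87 in oligodendrocytes of PFC. Mean Klf4 was at 1.68 CPM, beside 1.36 and 2.11. In striatum mean Klf2 was at 2.19 CPM in D1 and 1.69 in D2 MSNs, beside 1.65 in OPCs. Mean Klf4 there was at 2.39 and 2.33 CPM, beside 1.41. Klf6, a growth-responsive relative, was at 1281, 855, 1127 and 888 CPM and 768, 808, 948 and 723 CPM in endothelial cells, 116, 100.4, 101 and 82.3 CPM in excitatory neurons, and 4.16 to 7.93 CPM in D2 MSNs, where it was called lower (-2.99 ± 0.22).

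The inhibitors of signaling turn the pathways off again. Dusp1, a phosphatase of stress and MAP kinases, was at 750.4, 1195, 1003 and 767 CPM in PFC endothelial cells and 856, 899, 885 and 923 CPM in striatal ones, with differences of 5.51 ± 0.11 and 5.27 ± 0.08. Nfkbia, the inhibitor of NF-kappa-B, was at 1307, 1161, 1359 and 1339 CPM and 1181, 1179, 1186 and 956 CPM in endothelial cells. Zfp36, which destabilizes inflammatory mRNAs, was at 532, 624, 654 and 446 CPM and 669, 668, 669 and 486 CPM and was called lower in excitatory neurons (-4.09 ± 0.56). Dusp6, a phosphatase of ERK, was at 207, 270.4, 329.8 and 224 CPM in PFC endothelial cells and was also called higher in OPCs, at 108, 83.4, 92.8 and 137 CPM in PFC (1.03 ± 0.23) and 110.3, 93.5, 113 and 92.5 CPM in striatum (1.64 ± 0.19). Trib1, a pseudokinase, was the member that OPCs led, at 31.5, 41.7, 37.5 and 45.5 CPM in PFC (2.14 ± 0.26) and 41.8, 14.6, 32.1 and 6.17 CPM in striatum (3.18 ± 0.32). The kinase Sik1 stayed at 15.0 to 30.5 CPM in PFC endothelial cells and Dusp5, a nuclear ERK phosphatase, at 3.34 to 5.35 CPM in excitatory neurons.

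Among the growth and stress regulators, Btg2, an antiproliferative gene, was at 1688, 1305, 1774 and 996 CPM in PFC endothelial cells and 1492, 1612, 1333 and 1156 CPM in striatal ones. Its relative Btg1 was more even over the types, at 129, 143, 109 and 142 CPM and 121, 114, 129 and 138 CPM in endothelial cells, 56.7, 86.5, 111 and 87.8 CPM in PFC microglia and 65.2, 69.3, 92.4 and 138 CPM in striatal astrocytes. Ier2 was at 992, 620.2, 1568 and 412 CPM and 1203, 1514, 927 and 974 CPM in endothelial cells and at 143, 270.1, 157 and 285 CPM in neuroblasts (3.13 ± 0.21). Gadd45g, a growth arrest gene also known in neurogenesis, was highest in striatal neuroblasts, at 1093, 904, 1051 and 1378 CPM (3.18 ± 0.12), beside 649, 702, 652 and 958 CPM in striatal and 601, 522, 596 and 559.6 CPM in PFC endothelial cells. The neuroblast and endothelial libraries of striatum overlapped for Gadd45g. Neuroblasts also held Fos at 258, 505, 296 and 456 CPM (1.13 ± 0.20). Of the rest, the survival gene Ier3 was at 128 to 259.9 CPM in PFC endothelial cells, and Gadd45b, Ier5, Csrnp1 and the clock gene Per1 were at 19.3 to 67.5 CPM there.

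The effectors divided by cell type. Arc, a capsid-like synaptic protein made in active neurons, was at 59.6, 80.8, 69.3 and 96.2 CPM in excitatory neurons (4.37 ± 0.22) and was called lower in PFC endothelial cells (-2.25 ± 0.72). Homer1, a scaffold of metabotropic glutamate receptors, was at 167, 179, 176 and 205 CPM in excitatory neurons (2.96 ± 0.10), 156, 133, 201 and 173 CPM in D1 MSNs (2.04 ± 0.12) and 175, 149, 232 and 158 CPM in D2 MSNs (2.23 ± 0.12). Nptx2, a secreted pentraxin that clusters AMPA receptors, was at 28.1, 25.3, 27.8 and 40.9 CPM in excitatory neurons (4.56 ± 0.29) and 12.0, 19.6, 25.7 and 21.4 CPM in PFC OPCs (3.65 ± 0.47). Endothelial libraries held Nptx2 at 0, 0, 0 and 2.41 CPM in PFC. Cyr61, a matrix protein, was vascular, at 1201, 709, 1252 and 576 CPM and 734, 847, 735 and 703 CPM in endothelial cells, and was also called higher in astrocytes (2.04 ± 0.27 in PFC and 2.48 ± 0.20 in striatum). Ptgs2, the inducible cyclooxygenase, stayed at 9.54 to 17.9 CPM in excitatory neurons and 6.01 to 13.3 CPM in PFC endothelial cells.

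Excitatory neurons had 15 of the 33 tested members higher and 5 lower, where 24.9% of all genes were called higher and 15.2% lower. In D2 MSNs 16 of 38 were higher and 9 lower, against 15.4% and 13.3% of all genes, and in D1 MSNs 13 higher and 12 lower, against 16.1% and 12.2%. Interneurons had 3 higher and 9 lower in PFC, against 19.1% and 15.7%, and 10 higher and 7 lower in striatum, against 17.1% and 10.6%. Microglia had 14 higher and 1 lower in PFC, against 17.9% and 11.0%, and 24 higher and none lower in striatum, against 14.4% and 1.31%. Neuroblasts had 6 higher and 8 lower, against 12.8% and 18.0%. Astrocytes had 4 higher and 4 lower in PFC, against 15.6% and 10.6%, and 5 and 10 in striatum, against 18.4% and 8.06%. In the oligodendrocyte lineage of PFC 15 members were lower in OPCs (7.10% of all genes lower), 17 in NFOs (12.2%) and 18 in oligodendrocytes (15.9%), and in striatum 16 (7.30%), 15 (8.10%) and 14 (17.8%). Of members higher there were 3 in PFC OPCs (14.5% of all genes higher), none in NFOs (10.3%) and 3 in oligodendrocytes (14.0%), and in striatum 3 (13.9%), none (7.96%) and 3 (14.8%).

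Other genes of the same pathways, from lists of 20 upstream regulators, 14 later activity-regulated genes and 22 further dissociation and heat response genes, are given by counts. As for the members, a gene that passed the filter through the type in which it is high had to differ. The counts thus describe the genes tested and support nothing further. In excitatory neurons 12 of the 12 later genes tested were higher and none lower, beside 9 higher and 1 lower of 17 upstream regulators and 2 higher and 3 lower of 16 dissociation and heat genes. Of all genes tested there, 24.9% were called higher and 15.2% lower. PFC endothelial cells had 11 higher and 1 lower of the 16 dissociation and heat genes, 8 and 1 of the 17 upstream regulators, and 2 and 5 of the 12 later genes. In striatal endothelial cells the dissociation and heat list had 14 higher and 3 lower of 19, the upstream list 8 and 0 of 19, and the later list 3 and 4 of 12. Microglia had 7 higher and 2 lower of 16 dissociation and heat genes in PFC and 9 and 0 of 19 in striatum. Of all genes, 21.3% were higher and 18.5% lower in PFC endothelial cells, and 22.0% and 12.0% in striatal ones. In microglia these shares were 17.9% and 11.0% in PFC and 14.4% and 1.31% in striatum.

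The endothelial group also holds mural cells, the pericytes and smooth muscle of the vessel wall. Cells with more UMIs of the mural markers Pdgfrb, Vtn and Acta2 than of the endothelial markers Cldn5, Ly6c1 and Flt1 numbered between 26 and 63 per library. Their summed member level was 9053, 8492, 13043 and 6100.2 CPM in PFC and 10116, 12461, 8774 and 11275 CPM in striatum. Cells with more endothelial marker UMIs had 21016, 18729.6, 20750.3 and 14969.6 CPM and 19637, 21851, 18886 and 18622 CPM. The mural level was the lower in all 8 libraries. Fos was at 2739.8, 2266, 2737 and 1138 CPM in PFC mural-marked cells, above every library of the other PFC types.

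Counted per cell, 83.4 to 94.7% of PFC endothelial cells and 89.9 to 93.4% of striatal ones held a Fos UMI, and 71.3 to 88.3% and 83.2 to 88.3% after each cell was thinned to 1000 UMIs. Excitatory neurons held one in 27.1 to 42.0% of cells and 8.16 to 12.7% after thinning. The median depth was 5732 to 9177.5 UMIs per excitatory neuron and 2124 to 2756 per PFC endothelial cell. After thinning, at least 5 different members were found together in 77.1 to 91.2% of PFC endothelial cells and 82.9 to 86.7% of striatal ones, and in 2.93 to 11.0% of excitatory neurons. Arc was found in 26.3 to 37.2% of excitatory neurons and 5.92 to 7.23% after thinning. In striatum it was found in 4.88 to 5.67% of thinned D2 and 2.10 to 2.92% of thinned D1 MSNs. Types that should lack Arc differed, with 0 to 1.02% of thinned striatal OPCs, 0 to 0.791% of endothelial cells and 0 to 0.467% of neuroblasts, all below the D1 range, but 2.22 to 3.79% of oligodendrocytes (1.87 to 3.32% in PFC), which overlaps with it. Striatal microglia (0 to 4.17%) and astrocytes (0 to 3.23%) also overlapped with it, and their smallest libraries held 24 and 31 cells. Npas4 was found in 3.10 to 4.19% of thinned excitatory neurons and in 0 to 0.800% of thinned PFC oligodendrocytes.

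Levels outside endothelial cells were recomputed after leaving out every cell with a UMI of Cldn5, Ly6c1 or Flt1, a step added after seeing the data, which removes deeper cells more often than shallow ones. In PFC microglia 86.7% of the cells were left, and Fos went from 149, 535, 689 and 63.4 CPM to 26.8, 104, 58.8 and 5.18 CPM. Ier2 there was then at 4.12, 6.95, 0 and 0 CPM, while Btg2 was at 80.4, 139, 235 and 114 CPM, Zfp36 at 24.7, 41.7, 58.8 and 36.3 CPM and Btg1 at 53.6, 83.4, 103 and 93.3 CPM. Before that step microglia held Cldn5 at 11.2% of its endothelial level, Fos at 8.05% and Junb at 10.4%. After the step Fos in PFC microglia was lower in all 4 libraries, and Btg1 moved little in any of them.

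In striatal microglia 81.5% of the cells were left, and Fos went from 508, 571, 1026 and 209 CPM to 65.4, 387, 859 and 236 CPM, a fall in WT replicate 1 and little change in Setd1a+/- replicate 2. Egr2 was at 15.1, 72.5, 22.5 and 72.6 CPM and Egr1 at 111, 106, 146 and 163 CPM in the cells left. Neuroblasts kept Fos at 259, 372, 294 and 429 CPM, Ier2 at 148, 253, 156 and 280.2 CPM and Gadd45g at 1097, 824, 1038 and 1445 CPM. Neurons hardly moved: Fos was at 127, 135, 198 and 152 CPM in excitatory neurons and 98.8, 78.3, 182 and 109 CPM in D2 MSNs after the step. In PFC astrocytes of Setd1a+/- replicate 1, Fos was at 444 CPM in all cells and 73.8 CPM in those left. Over the PFC astrocyte libraries Ly6c1 was at 36.2, 18.3, 205 and 24.4 CPM and Flt1 at 14.5, 11.0, 103 and 10.8 CPM, highest in that library, and Cldn5 at 19.3, 33.0, 8.54 and 2.71 CPM.

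Oligodendrocytes, which are not known to make Arc, had it called higher in both tissues. Arc was at 30.1, 22.2, 14.0 and 22.9 CPM in PFC (2.93 ± 0.34) and 29.2, 27.9, 21.0 and 18.9 CPM in striatum (2.00 ± 0.24). Free RNA held Arc at 31.4, 67.9, 47.2 and 51.7 CPM and 37.8, 39.1, 43.1 and 45.9 CPM. Without the oligodendrocytes that held a UMI of any neuronal marker, Arc was at 33.3, 21.5, 10.8 and 21.0 CPM in PFC and 30.4, 37.0, 17.1 and 0 CPM in striatum, and OPCs left by the same step held 0, 0, 0 and 16.0 CPM and 5.34, 4.81, 2.87 and 0 CPM. The part of neuronal RNA in the Arc of oligodendrocytes was not tested further. Fos in striatal oligodendrocytes was at 179.6, 223, 238 and 151 CPM, and at 183, 226, 227 and 149 CPM without cells that held an endothelial marker UMI. Cldn5 stood at 0.448% of its endothelial level in these cells and Fos at 4.29%. A Fos UMI was found in 13.3 to 17.5% of the thinned striatal oligodendrocytes.

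Within excitatory neurons the authors named 7 subtypes, of which 6 had at least 10 cells in every library and were tested against each other. DL-Pou3f1, with 62 cells, was not tested. Over 30 members and 180 tests 20 were called higher and 24 lower, beside 3.71% and 3.44% of all tests. The deep-layer subtype DL-Tshz2 was the low one, with 16 members lower and 1 higher, where 9.85% of all genes were lower and 4.92% higher. Its summed level was 869, 941, 778 and 615 CPM, below every library of DL-Foxp2 (1678 to 3037), DL-Nnat (1715 to 3248), DL-Etv1 (1821 to 2432), SL-Cux2 (1866 to 2261) and SL-Myh7 (1433 to 1943).

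Egr1 was at 90.4, 114, 104 and 59.5 CPM in DL-Tshz2 and 314, 252, 450.4 and 408 CPM in DL-Foxp2 neurons, without overlap, and the DL-Tshz2 difference was -1.42 ± 0.16. Egr3 was at 13.2, 14.3, 25.4 and 6.61 CPM in DL-Tshz2 (-2.60 ± 0.25). Gadd45b was also called lower (-2.56), and so were Egr2, Nr4a2, Nptx2 and Ptgs2, for which no fold change is given because the 4 DL-Tshz2 libraries together held 2, 1, 3 and 0 of their UMIs. Homer1 was at 72.8, 59.9, 73.9 and 92.5 CPM (-1.39 ± 0.14), and Fos at 99.2, 71.3, 43.9 and 19.8 CPM (-1.16 ± 0.22). Nr4a3 was the exception, higher in DL-Tshz2 by 1.28 ± 0.31. The median DL-Tshz2 cell had 3652 to 6097.5 UMIs, the lowest of the tested subtypes, against 9570 to 14540 in DL-Etv1, and the part of depth in the result was not tested. Of the other lists, 4 of 16 upstream regulators, 5 of 12 later genes and 2 of 10 dissociation and heat genes were also lower in DL-Tshz2, and 1 later gene was higher.

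The other subtypes differed in fewer members. DL-Foxp2 neurons, whose marker is typical of corticothalamic cells, had Cyr61 at 39.9, 80.2, 145 and 74.5 CPM (4.17 ± 0.22), with 6 more members higher (Nr4a2, Trib1, Gadd45b, Arc, Ier5 and Ier2, at 1.06 to 1.45) and none lower, against 3.45% of all genes higher and 4.33% lower. Of the other lists, the later genes Bdnf, Scg2, Rgs2, Cdkn1a, Sorcs3 and Nrn1 and the upstream regulator Mef2c were lower in DL-Foxp2, and Nptx1 and Sgk1 were higher. DL-Etv1 neurons had Nr4a2 at 104, 44.99, 58.5 and 88.5 CPM (3.38 ± 0.23) and Nptx2 higher by 1.504 and no member lower (3.00% and 0.874% of all genes). DL-Nnat neurons had Ptgs2 at 19.98, 23.0, 18.1 and 41.4 CPM (2.30 ± 0.33), with Nr4a2, Nptx2, Fosl2 and Ier3 also higher and none lower (3.00% and 0.613%). The superficial SL-Cux2 neurons had Dusp6 (1.06) and Npas4 (1.02) higher and Nptx2 (-1.32) and Nr4a3 (-1.21) lower (3.59% and 1.42%). SL-Myh7 neurons had Ptgs2 (2.18) and Egr2 (1.23) higher in every library, Nptx2 (1.03) higher in 3 of 4, and 6 members lower, among them Ier2 (-1.72) and Npas4 (-1.30), against 4.32% of all genes higher and 3.53% lower.

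D1 and D2 MSNs, the striatal projection neurons with dopamine receptors of opposite coupling, were compared within libraries, and called past an FDR of 0.05 and an FC of 1.5. Of 29 members tested, 10 were higher in D2 MSNs, where 1.53% of all genes were called, and none was higher in D1 MSNs, where 2.95% were. All 10 were higher in D2 in each of the 4 libraries. Egr2 differed most, at 8.82, 8.90, 15.5 and 11.7 CPM in D1 and 18.4, 19.7, 44.5 and 41.6 CPM in D2 (1.47 ± 0.15, FDR 9.57e-19). Fos was at 56.1, 55.9, 72.4 and 49.6 CPM in D1 and 103, 77.5, 191 and 111 CPM in D2 (1.01 ± 0.08, FDR 2.04e-33). Junb was at 182, 240.5, 163 and 222 CPM and 288, 339, 402 and 428 CPM (0.87 ± 0.05, FDR 1.59e-63).

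Arc was at 35.3, 29.8, 29.97 and 30.5 CPM in D1 and 61.8, 51.0, 75.0 and 62.9 CPM in D2 (1.01 ± 0.10), and Nr4a1 at 77.6, 77.2, 132 and 72.3 CPM and 137, 106, 298 and 159 CPM (0.95 ± 0.07). The other called members were Egr4 (1.12 ± 0.22), Btg2 (1.02 ± 0.10), Dusp6 (0.98 ± 0.10), Npas4 (0.69 ± 0.12) and Fosb (0.60 ± 0.16). Over the 29 tested members 24 differences were positive and the median was 0.46, against 0.00 over all genes. Egr1 (0.58 ± 0.06), Gadd45b (0.55 ± 0.13) and Dusp1 (0.53 ± 0.15) passed the FDR and fell short of the FC, as did Gadd45g (0.21 ± 0.06) and Homer1 (0.18 ± 0.06), each higher in D2 in 3 of 4 libraries. Btg1 also passed the FDR and was higher in D1 in all 4 libraries (-0.30 ± 0.10, FDR 0.0196). Homer1 was at 156, 133, 201 and 173 CPM and 175, 149, 232 and 158 CPM in D1 and D2, and those libraries overlapped. At least 5 members were found together in 5.47 to 11.6% of thinned D2 cells and 2.80 to 5.66% of thinned D1 cells, and the median depth was 2740.5 to 4093 UMIs in D2 and 2657 to 3664 in D1. Of the other lists, none of 18 upstream regulators (median difference -0.07) or 10 dissociation and heat genes (median 0.06) was called, and of 10 later genes (median -0.13) Nptx1 was, lower in D2. Cldn5 was at 10.3, 4.76, 12.0 and 2.20 CPM in D1 and 10.0, 2.58, 18.7 and 2.60 CPM in D2 MSNs, and without the cells that held an endothelial marker UMI Fos was at 55.9, 56.5, 68.5 and 47.0 CPM in D1 and 98.8, 78.3, 182 and 109 CPM in D2.

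**Figure D3:**
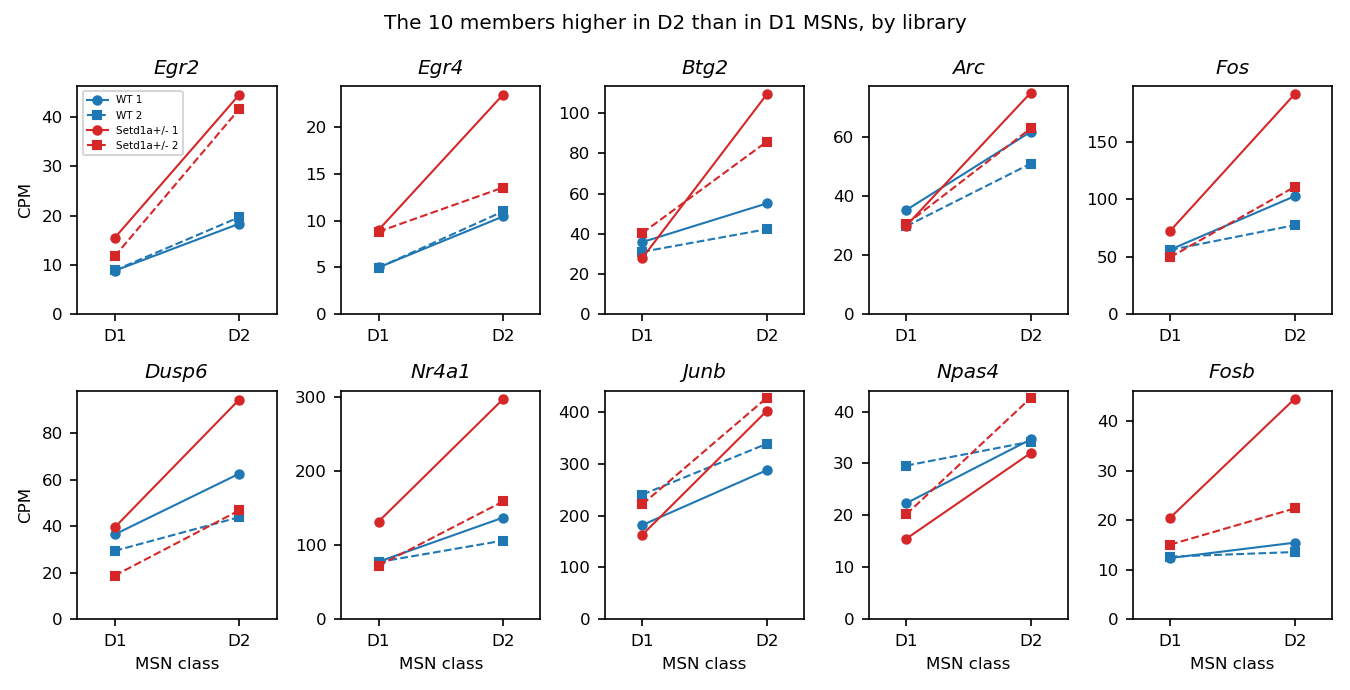
Level in CPM of the 10 members called higher in D2 than in D1 MSNs, with 1 line per library joining its D1 and D2 value (blue, WT; red, Setd1a+/-; solid with circles, replicate 1; dashed with squares, replicate 2) and each axis starting at 0. Every line rises from D1 to D2, most steeply in Setd1a+/- replicate 1 for Fos, Nr4a1 and Fosb.

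PFC and striatum were compared within the cell types named in both, over 4 libraries each, and called past an FDR of 0.05 and an FC of 2. Tissue and the separate digestions cannot be told apart here. Of 122 tests on 35 members, 1 was higher in PFC, against 1.49% of all tests, and 11 were higher in striatum, against 3.35%. Endothelial cells had no called member in 33 tests, where 0.340% of all genes were higher in PFC and 4.25% in striatum. Junb passed the FDR there and just missed the FC (-0.99 ± 0.19, FDR 0.00766), higher in striatum in all 4 library pairs. In interneurons and astrocytes, members past the FDR but not the FC lay in both directions. Klf6 (0.95 ± 0.20 in interneurons and 0.96 ± 0.28 in astrocytes) and Nfkbia (0.83 ± 0.24 in astrocytes) were higher in PFC. Homer1 in interneurons (-0.81 ± 0.25) was higher in striatum. With a replicate block 15 tests over all these types were higher in striatum (4.00% of all tests) and 1 in PFC (1.61%), and the added calls were Jund (-1.33, FDR 0.0459) and Homer1 (-1.10, FDR 0.0279) in endothelial cells and Ier2 (-1.65, FDR 0.0475) and Btg2 (-1.17, FDR 0.0334) in oligodendrocytes. That block, like the library pairs, joins PFC and striatum libraries by replicate number, a match that neither the labels nor the methods give. Fos in endothelial cells was at 5375, 4474, 4982 and 3015 CPM in PFC and 4763, 5269, 4491 and 3946 CPM in striatum, and its difference was -0.08 ± 0.17 (positive where PFC is higher). Astrocytes had 1 of 15 tested members called each way, against 2.50% of all genes higher in PFC and 5.62% in striatum. Dusp6 was higher in PFC astrocytes, at 84.5, 51.3, 59.8 and 73.2 CPM against 37.8, 24.5, 24.8 and 42.5 CPM (1.28 ± 0.30, FDR 0.0114). Jund in astrocytes was at 4.83, 0, 0 and 5.42 CPM in PFC, from 4 UMIs, and 44.6, 28.5, 83.4 and 138 CPM in striatum (-3.99 ± 0.53).

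In oligodendrocytes 2 of 16 tested members were higher in striatum and none in PFC, against 0.940% and 0.853% of all genes. Fos was at 52.2, 82.5, 38.2 and 21.4 CPM in PFC and 179.6, 223, 238 and 151 CPM in striatum, without overlap (-2.16 ± 0.28, FDR 0.00188). With the replicate 2 libraries of PFC alone, an alternative added after seeing the data, the difference was -2.02. Of its 134 tests 10 were called, on 8 members and all higher in striatum, beside 1.85% of all tests higher in striatum and 1.04% in PFC, among them Junb (-1.17) and Ier2 (-1.14) in endothelial cells and Jund (-4.25) in astrocytes. Dusp6 in astrocytes was no longer called, at a similar difference (1.22 ± 0.36, FDR 0.0587). Junb was also higher in striatal oligodendrocytes (-1.98 ± 0.44), in 3 of 4 library pairs, and was not called with PFC replicate 2 alone (-1.16, FDR 0.185). In microglia 4 of 17 tested members were higher in striatum and none in PFC, against 11.3% and 5.21% of all genes. Junb (-1.92 ± 0.42), Egr1 (-1.73 ± 0.39), Gadd45g (-1.29 ± 0.38) and Homer1 (-2.67 ± 0.55) were those called, and of these only Junb was called with PFC replicate 2 alone. Egr1 was then at -1.38 (FDR 0.102), Gadd45g at -1.65 (FDR 0.0716) and Homer1 at -2.57 (FDR 0.0660). Without cells that held an endothelial marker UMI, microglial Junb was at 35.0, 69.5, 44.1 and 15.5 CPM in PFC and 151, 377, 354 and 254 CPM in striatum.

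Markers of MSNs moved with these microglial differences. In striatal microglia Tac1 was at 697, 889, 616 and 702 CPM, Penk at 672, 679, 652 and 1061 CPM and Gad2 at 206, 210.5, 134 and 224 CPM, against 0 to 1.77, 0 to 10.8 and 0 to 75.7 CPM in PFC microglia. The receptors Drd1 and Drd2 were at 17.9 to 63.0 and 8.59 to 50.4 CPM in striatal microglia and at 0 in all PFC ones. The microglia without a UMI of any neuronal marker were 39.5% of those in striatum and 84.2% in PFC. In these cells Junb was at 68.4, 148, 133 and 31.4 CPM in PFC and 402, 629, 904 and 246 CPM in striatum, without overlap. Homer1 was at 7.82, 16.4, 0 and 0 CPM and 24.4, 0, 0 and 0 CPM, Egr1 at 23.4, 82.1, 24.2 and 25.2 CPM and 122, 147, 196 and 82.0 CPM, and Gadd45g at 50.8, 49.2, 121 and 31.4 CPM and 122, 41.9, 261 and 246 CPM, and the tissues overlapped in all 3. The part of neuronal RNA in the microglial differences was not tested further.

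Interneurons had 4 of 22 tested members higher in striatum and none in PFC, against 4.31% and 3.52% of all genes, each also called with PFC replicate 2 alone, Arc (-3.41 ± 0.49), Egr3 (-2.80 ± 0.44), Nr4a2 (-2.11 ± 0.45) and Junb (-1.18 ± 0.26). The striatal interneuron group held Slc17a7 at 251, 191, 149 and 165 CPM, against 0, 17.9, 2.22 and 6.62 CPM in PFC interneurons. Without the cells with a UMI of Slc17a7 or Neurod6, 76.2% of the striatal interneurons were left. Nr4a2 then went from 70.4, 32.9, 45.6 and 95.2 CPM to 1.17, 0, 11.4 and 10.1 CPM. PFC interneurons left by the same step held 17.1, 27.4, 6.98 and 7.04 CPM. Striatum was then below PFC in the WT libraries and above it in the Setd1a+/- libraries, and the tissues overlapped. Arc went from 27.3, 20.6, 48.0 and 45.3 CPM to 5.85, 16.1, 30.9 and 17.3 CPM, and Egr3 from 31.8, 27.1, 89.9 and 49.97 CPM to 5.85, 10.3, 52.1 and 20.2 CPM. Junb was at 45.6, 125, 155 and 138 CPM in the cells left. All PFC interneurons held Junb at 33.1 to 73.2 CPM, a range that WT replicate 1 of striatum then fell within. Before the step the striatal libraries were at 76.5 to 174 CPM, above that range. For Arc, Egr3 and Junb no PFC levels after the step are given. Of the other lists, 3 tests were higher in PFC and 5 in striatum of 74 for upstream regulators, 1 and 6 of 35 for later genes, and 1 and 7 of 75 for dissociation and heat genes.

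Each tissue had 2 biological replicates, each with 1 library of either genotype, and some members differed between them. In PFC, over 130 tests with genotype in the fit, 6 tests on 3 members were higher in replicate 2 (3.53% of all tests) and 4 tests in replicate 1 (0.702%). Fosb in excitatory neurons was at 2.38, 13.6, 2.35 and 13.9 CPM, higher in replicate 2 by 2.63 ± 0.35, and Jund at 14.6, 49.6, 9.19 and 49.1 CPM (2.18 ± 0.24). Fosl2 was also higher there (1.07 ± 0.27). Endothelial cells had Jund higher by 2.61 ± 0.26 and Fosb by 0.99 ± 0.22, and oligodendrocytes Jund by 2.99 ± 0.37. The members higher in replicate 1 were all endothelial: Ier2 (-1.22 ± 0.21), Cyr61 (-0.87 ± 0.19), Atf3 (-0.85 ± 0.19) and Nr4a1 (-0.68 ± 0.21). The heat genes Hspa1a (-1.33), Hspa1b (-1.11) and Dnajb1 (-0.83) were also lower in replicate 2 of those cells, whereas Rhob of the same list was higher (1.29). Dissociation and other differences between the preparations cannot be told apart.

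In striatum, at an FC above 2 and over 203 tests, 2 tests were higher in replicate 2 (0.479% of all tests) and 2 in replicate 1 (0.460%). Homer1 (1.22 ± 0.31) and Ptgs2 (1.54 ± 0.40) in endothelial cells were higher in replicate 2, and Nptx2 in D1 (-1.21 ± 0.34) and Nr4a3 in D2 MSNs (-1.44 ± 0.36) were higher in replicate 1. Fos in striatal endothelial cells differed by -0.03 ± 0.17. Past the FDR and the FC of 1.5 used in PFC, but not the FC of 2, were also Egr1 in D1 (-0.63 ± 0.13) and D2 MSNs (-0.92 ± 0.14, FDR 1.18e-08) and Nr4a1 (-0.61 ± 0.14), Egr3 (-0.60 ± 0.17), Dusp6 (-0.71 ± 0.17) and Per1 (-0.68 ± 0.19) in D2 MSNs, all higher in replicate 1, and Fos (0.81 ± 0.22) and Ier2 (0.90 ± 0.26) in neuroblasts, higher in replicate 2.

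Setd1a+/- was compared with WT within each cell type, 2 libraries against 2. In PFC none of 130 tests on members was called (FC above 1.5), as was 0% of all 51145 tests. At an unadjusted p under 0.05 there were 8, 6 of them higher in Setd1a+/-, with 1.70% of all tests below that level, and DESeq2 called none. The 5 with the smallest p were Nfkbia in oligodendrocytes, at 41.7, 44.3, 113 and 179 CPM (1.83 ± 0.31), Cyr61 in astrocytes (1.46 ± 0.47), Fos in interneurons, at 71.4, 159, 315 and 218 CPM (1.19 ± 0.40), and Egr2 (1.04 ± 0.30) and Nr4a1 (0.69 ± 0.22) in excitatory neurons. With a replicate block, 2 tests were called, Nfkbia in oligodendrocytes (1.77, FDR 0.0184) and Fosb in endothelial cells (-1.07, FDR 0.0123), beside 0.0508% of all tests. With so few libraries, the p-values of the genotype fits with that block rest mostly on the variance shared over genes. The main genotype fits held no replicate term, although libraries of a replicate deviated together (correlations of 0.118 to 0.595 over PFC types). In these fits the share of all tests under 0.05 was 1.70%, 1.60% in the excitatory subtypes and 2.62% in striatum. Each lay below the threshold itself, so an absence of calls does not show an absence of differences.

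Among the excitatory subtypes none of 141 tests was called, as was 0% of all 44783, and none by DESeq2. At an unadjusted p under 0.05 there were 17, 16 of them higher in Setd1a+/-, against 1.60% of all tests, with 9 of 31 in DL-Foxp2, 6 of 27 in DL-Nnat and 1 of 30 in DL-Etv1. The 1 lower was Fos in DL-Tshz2, at 99.2, 71.3, 43.9 and 19.8 CPM (-1.25 ± 0.42), and both Setd1a+/- libraries lay below the WT ones. Over all tested members 26 of 31 differences were positive in DL-Foxp2, 21 of 27 in DL-Nnat, 19 of 24 in SL-Cux2 and 17 of 30 in DL-Etv1, against 4 of 12 in DL-Tshz2 and 6 of 17 in SL-Myh7. In that order the medians were 0.47, 0.40, 0.18, 0.10, -0.16 and -0.24, against 0.011, -0.0055, -0.0039, -0.0055, -0.017 and 0.0024 over all genes. No share of positive differences over all genes is given, and members of a library can move together, so they are not separate observations. Nr4a1 was at 75.6, 58.6, 124 and 184 CPM in DL-Nnat (1.20 ± 0.29) and 63.2, 66.1, 179.5 and 95.01 CPM in DL-Foxp2 (1.12 ± 0.32). Egr1 (0.95 ± 0.23) and Fos (0.98 ± 0.26) in DL-Nnat and Dusp1 in DL-Foxp2 (1.503 ± 0.43) were the others of the smallest p. None of these passed the correction over all genes.

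In striatum none of 203 tests was called at an FC above 2, beside 0.00544% of all tests, and none by DESeq2. At an unadjusted p under 0.05 there were 35, 32 of them higher in Setd1a+/-, against 2.62% of all tests. In D2 MSNs 12 of 29 tested members were below that level, all higher, where 2.50% of all genes were, and 27 of 29 differences were positive, with a median of 0.53 against 0.01 over all genes. In striatal interneurons 11 of 26 were, all higher, against 3.03% of all genes. Astrocytes had 4 of 16, all higher (Fos, Jund, Klf4 and Nr4a1), against 4.41% of all genes, and Setd1a+/- replicate 2 held only 31 of these cells. D1 MSNs had 3 of 31, all higher, against 2.07%, and endothelial cells 2 of 35, both lower (Gadd45b and Ier2), against 2.21%. The remaining 3 were 2 of 11 in neuroblasts, both higher, and 1 of 17 in OPCs, which was lower. The difference in genotype effect between cell types was not tested. Egr2 in D2 MSNs was at 18.4, 19.7, 44.5 and 41.6 CPM (1.22 ± 0.21, FDR 0.573) and Btg2 at 55.1, 42.3, 109 and 85.8 CPM (1.05 ± 0.20, FDR 0.776), and in both the Setd1a+/- libraries lay above the WT ones.

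Fos in striatal interneurons was at 107, 85.5, 287 and 149.9 CPM (1.22 ± 0.26, FDR 0.768), Egr3 at 31.8, 27.1, 89.9 and 49.97 CPM (1.26 ± 0.30) and Fosb at 6.06, 1.65, 20.9 and 15.1 CPM (2.19 ± 0.55). Slc17a7 was lower in the Setd1a+/- libraries of that group than in the WT ones, as given above. Without the cells that held an excitatory marker UMI, Fos was at 88.9, 81.6, 273 and 185 CPM and Egr3 at 5.85, 10.3, 52.1 and 20.2 CPM, with the same order of the genotypes. With a replicate block, 6 tests were called in striatum, beside 0.108% of all tests: Btg2 (1.05, FDR 5.23e-07), Egr2 (1.21, FDR 0.000128) and Fosb (1.18, FDR 0.00262) in D2 MSNs, Fos (1.18, FDR 0.00295) and Egr3 (1.26, FDR 0.0405) in interneurons, and Klf4 in astrocytes (3.54, FDR 0.0391). As in PFC, these p-values rest mostly on the variance shared over genes. Klf4 in striatal astrocytes lay between 0 and 53.1 CPM over the libraries, and Setd1a+/- replicate 2 held 31 astrocytes with 94178 UMIs. Setd1a+/- replicate 1 was the highest of the 4 libraries for 26 of the 40 members in D2 MSNs, with Fos at 191 CPM. It was also highest for 23 members in D1 MSNs, 21 in striatal interneurons and 20 in striatal microglia, and for 4 to 13 in the other striatal types. No share over all genes is set beside these counts, and members of a library can move together. Without Setd1a+/- replicate 2, 8 tests on 6 members were called higher, beside 0.0768% of all tests, Fos, Fosb, Egr3 and Nr4a1 in D2 MSNs and Fos, Egr1, Egr3 and Npas4 in interneurons, and without Setd1a+/- replicate 1 none of these was. Leaving out Setd1a+/- replicate 1 called 4 members lower in microglia, where 1.58% of all genes were, Fos (-1.45, from 0.32 with all libraries), Ier2 (-2.28, from -0.31), Btg2 (-2.18, from -0.24) and Atf3, and Fos changed direction. The Setd1a+/- library that remained held 24 microglia with 66934 UMIs, of which 14 were Fos and none Atf3, so no fold change is given for Atf3, whose levels were 54.6, 155, 277 and 0 CPM. In these microglia the endothelial marker Cldn5 was at 239, 146, 411 and 74.7 CPM, Ly6c1 at 307, 253, 576 and 149 CPM and Flt1 at 101, 85.9, 281 and 74.7 CPM, lowest in Setd1a+/- replicate 2, the Setd1a+/- library that remained, and the part of endothelial RNA in these calls was not tested.

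**Figure D4:**
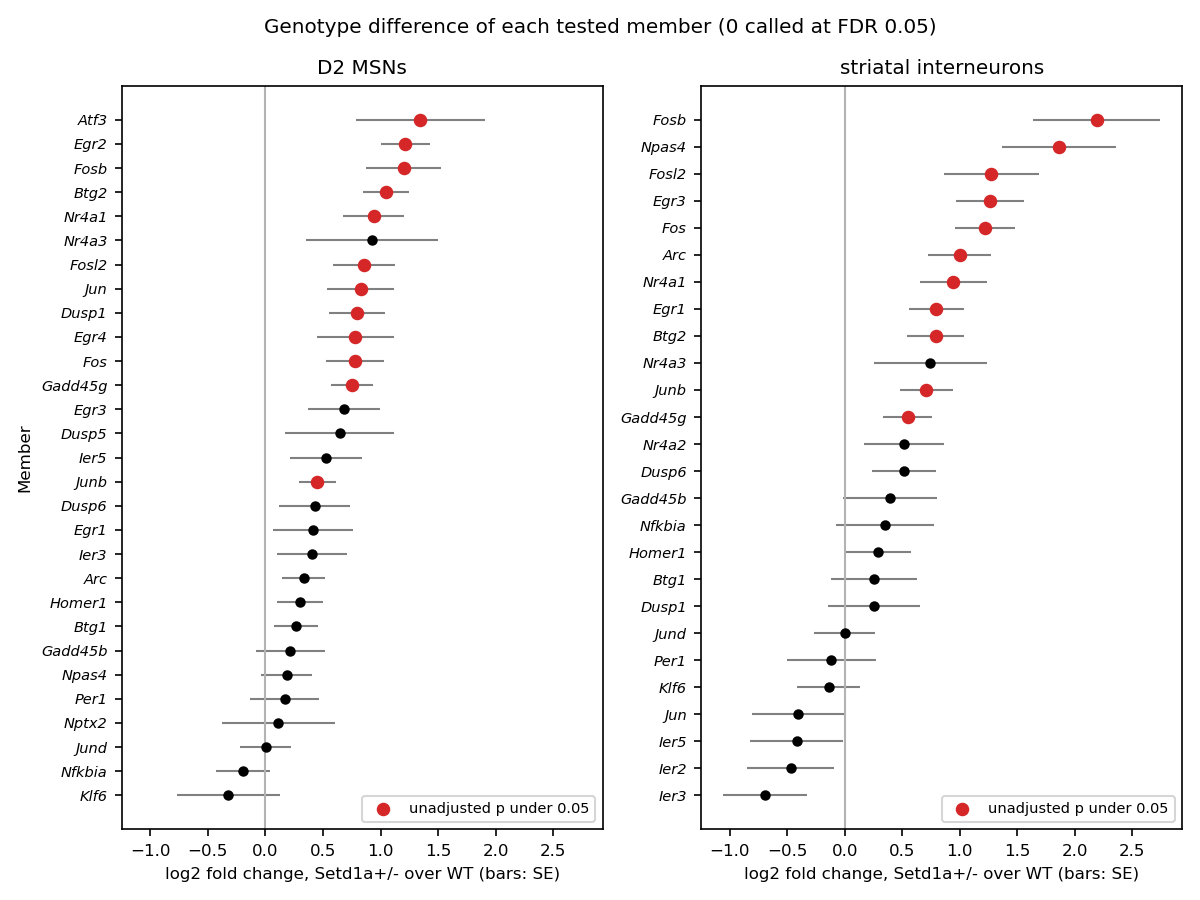
Log2 fold change of Setd1a+/- over WT for each member tested in D2 MSNs (29) and striatal interneurons (26), with bars of 1 SE and red points where the unadjusted p was under 0.05. Most points lie right of 0, and none passed an FDR of 0.05.

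The genotype differences of the 2 tissues were compared by an interaction term over the 8 libraries. None of 137 tests on the members was called, as was 0% of all 49915, and DESeq2 called none. At an unadjusted p under 0.05 there were 8, of which 2 were positive, against 2.21% of all tests. The smallest p belonged to Nfkbia in oligodendrocytes (1.62 ± 0.46, positive where the Setd1a+/- difference is higher in PFC), Jun in astrocytes (-2.17 ± 0.78), Klf4 in microglia (-3.69 ± 1.28), Fos in NFOs (-2.96 ± 1.09) and Homer1 in oligodendrocytes (-1.72 ± 0.65). No list of upstream, later, or dissociation and heat genes had a called test between genotypes in either tissue.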

How the data were processed

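Tissue of 2 male mice was pooled for each of 8 libraries and sequenced as droplet single-cell RNA. The deposited matrices hold raw counts of UMIs per gene and barcode, made by the authors with Cell Ranger 3.0.2 on mm10, and the authors' deposited annotation names each cell's library, type and subtype, from clustering in Seurat 3.2.0 of cells in which 800 or more genes were found and mitochondrial UMIs did not pass 10% (versions from the submitters' processing notes). The authors' gene-by-cell expression tables were not used, because their gene column holds row numbers, and their test, DEsingle, was not run. No doublet caller was run here.

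The UMIs of the annotated cells were summed by library and cell type, for types with at least 10 cells in every library, so that the library is the replicate. edgeR 4.0.16 (R 4.3.3; quasi-likelihood test, TMM, filterByExpr with a minimum count of 10) was fitted to all genes of each type, and p-values were adjusted by Benjamini-Hochberg over all genes of that fit. Types, subtypes and MSN classes were fitted with the library as a block, the tissue and replicate fits had a genotype term, and the genotype fits had none. A call needed an FDR under 0.05 and a fold change above 1.5 for genotype and replicate in PFC and for MSN classes, and above 2 elsewhere, with no fold change limit for the interaction. The fits were tested on simulated data. DESeq2 1.42.0 and other settings were alternatives. Other tools were Python 3.11.15, numpy 2.4.6, pandas 2.3.3, scipy 1.17.1 and matplotlib 3.10.9.

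The members and the other gene lists were chosen with earlier results of these data known. Levels were given in full for 12 members chosen by name and the 10 with the highest mean level, called members were named up to 10 for each direction, and where none was called the 5 with the smallest p were named; Jund, Egr2, Atf3, Maff and others with values beyond this rule were described by role after their values were seen. The replicate 2 libraries of PFC taken alone, the replicate fits without a genotype term, and the levels without cells that held a marker UMI of another type were chosen after seeing the data. The excitatory markers were Slc17a7 and Neurod6, and 1 further marker is not reported here.

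Per the methods a biological replicate comprised 1 WT and 1 Setd1a+/- library, and libraries with the same number were taken as such a pair. Their deviations from the group means correlated at 0.118 to 0.595 over the PFC types (median 0.365) and at 0.0940 to 0.390 over the striatal types (median 0.176). Blocks and pairs over both tissues joined libraries by number as well, without a label that links the tissues. Free RNA was read from barcodes with 1 to 50 UMIs, and cells were thinned to 1000 UMIs for shares of cells. Shares and levels of 1 library cover counting error and the spread of its cells, and libraries of 15154268 to 26277553 UMIs set the precision. Promoter sequences are those of RefSeq on GRCm38.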

Additional observations from a re-analysis of the deposited data

How the results depend on the processing

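Counts of called tests on members kept within 1.5 times the main count under every setting tried for the cell types (143 calls in PFC and 202 in striatum, with 115 to 154 and 165 to 221 under the alternatives), the excitatory subtypes (44, with 36 to 52), D1 against D2 MSNs (10, with 9 to 13) and the genotype by tissue term (0 throughout). The genotype counts, 0 in each main fit, were less settled. Without a filter on low counts 1 test on members was called in PFC and 8 in striatum. With the replicate block 2 were called in PFC, 6 in striatum and 0 in the excitatory subtypes, the tissue comparison had 16, and the interaction had 0. Leaving out 1 library at a time gave 0 to 5 in PFC, 0 to 4 in the excitatory subtypes and 0 to 8 in striatum. The 5 in PFC came without Setd1a+/- replicate 2 (Fos, Ier2 and Cyr61 higher in astrocytes, Fosb and Jund lower in endothelial cells). The Setd1a+/- library that remained there held Ly6c1 at 205 and Flt1 at 103 CPM in astrocytes, the highest of the 4, and Fos at 444 CPM or 73.8 CPM without cells that held an endothelial marker UMI. The 4 in DL-Nnat came without Setd1a+/- replicate 1 (Fos, Nr4a1, Nr4a2 and Gadd45g, all higher), and without striatal WT replicate 1 Fos and Npas4 were called higher in interneurons. The tissue count of 12 was 32 without the filter and 9 to 21 with a library left out, the highest without PFC WT replicate 2. The PFC replicate count of 10 was 17 without the filter, 4 by DESeq2 and 6 to 26 with a library left out, the highest without PFC WT replicate 1, and the striatal replicate count of 4 was 0 by DESeq2, 0 without the genotype term and 1 to 12 with a library left out. These leave-outs assume that a lone library of a group varies like the others, and the replicate leave-outs were fitted without the genotype term. Shares over all genes are not set beside the counts of this section, which describe the members alone. The cause of these moves was not tested. Leaving out the filter changed unadjusted p-values as well as the number of genes tested. For Fos in striatal interneurons the edgeR p went from 0.000334 to 1.82e-08, at log2 differences of 1.22 and 1.21. Fos in striatal microglia, 0.32 and not called with all libraries, was called at -1.45 without Setd1a+/- replicate 1, as was Atf3, with no UMI in the Setd1a+/- library that remained. The mean summed level of all cells was 3712 CPM in PFC and 3544 CPM in striatum, and every alternative denominator, weighting and leave-out moved it by less than 1 SD of the libraries. Depth limits the lowest levels, as for Jund in PFC astrocytes, which rests on 4 UMIs.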
